A study of Mus musculus with 8 samples.

Results

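Stress keratins and simple epithelial keratins are 2 groups of the keratin family, and 8 of their genes were read here in skin of mouse embryos with and without p63. The stress keratins were Krt6a, Krt6b, Krt16 and Krt17, and the simple epithelial keratins were Krt7, Krt8, Krt18 and Krt19. Members were chosen by gene symbol: every probe set whose platform annotation gives 1 symbol, and that symbol one of the 8, was taken from each of the 2 array types. All 8 genes were found, among 41 keratin genes and 13674 genes with such a probe set in all. They had 13 probe sets on the A chip, and the B chip held 3 more. RNA came from whole skin at E18.5 (embryonic day), from p63 null embryos and from wild-type embryos of matings between p63 heterozygous mice. The groups were p63 null (2 arrays of each chip) and wild type (2 arrays of each chip), 8 arrays in all. The titles number 2 skin samples per genotype on each chip. They do not say whether a sample came from 1 embryo or from several. p63 was missing from the whole embryo rather than from 1 cell type. The sources used here do not say how the null allele was made, nor the strain or the sexes.

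Keratins are the intermediate filament proteins of epithelia. Each filament pairs a type I keratin with a type II keratin, so that Krt8 works with Krt18, and Krt6a and Krt6b with Krt16 and Krt17. The stress keratins are held in hair follicles, nails and palm skin and are switched on in epidermis after wounding or in hyperproliferation. The simple keratins belong to single-layered epithelia, glands and Merkel cells, and Krt8 and Krt18 also to the surface ectoderm before it stratifies. p63, encoded by Trp63, is a transcription factor that stratified epithelia need, and mice without it are born without a normal epidermis.

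The arrays were single-colour Affymetrix oligonucleotide arrays, and each value is a MAS5 signal, a linear intensity summed up over the short probes of a probe set. The 2 chips carry different probe sets and were fitted apart. Trp63 read 61.9 and 46.6 in null skin, against 379.3 and 347.1 in wild-type skin, and fell by 2.49 on the log2 scale (limma adjusted p = 1.13e-05). No source used here places its probes relative to the mutation, so this bears on the labels only as far as those probes read the altered transcript. On the A chip the beta-actin 3'/5' signal ratio, which moves with RNA breakdown and labelling, was 1.27 in both null arrays, against 1.63 and 1.69 in wild type. Null replicate 2 stood apart in its CreX spike, a control transcript added to each sample, with 6420 on the A chip, where the other arrays read 3334 to 3837. Wild-type replicate 2 stood apart in the Gapdh 3'/5' ratio on the A chip, at 2.46 against 1.25 to 1.47 in the other arrays.

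The stress keratins did not move as a group: Krt6a, Krt6b and Krt16 were higher in null skin, and Krt17 was lower by its 2 brighter probe sets. Neither Krt7 nor Krt8, the simple keratins bright enough to test, passed the threshold in either direction. On the A chip 9 of the 13 probe sets were above the level for testing, and 4 of them were called higher and 2 lower by limma at an adjusted p under 0.05. Over all 7453 probe sets tested on that chip 22.1% were called higher and 22.2% lower, together 44.3%, so calls were common in this comparison. Groups did not overlap for 8 of the 9, where the same held for 73.9% of all tested probe sets. Fold changes are given as log2(signal + offset) in null minus that in wild type, a scale that understates the change of dim probe sets.

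**Figure D1:**
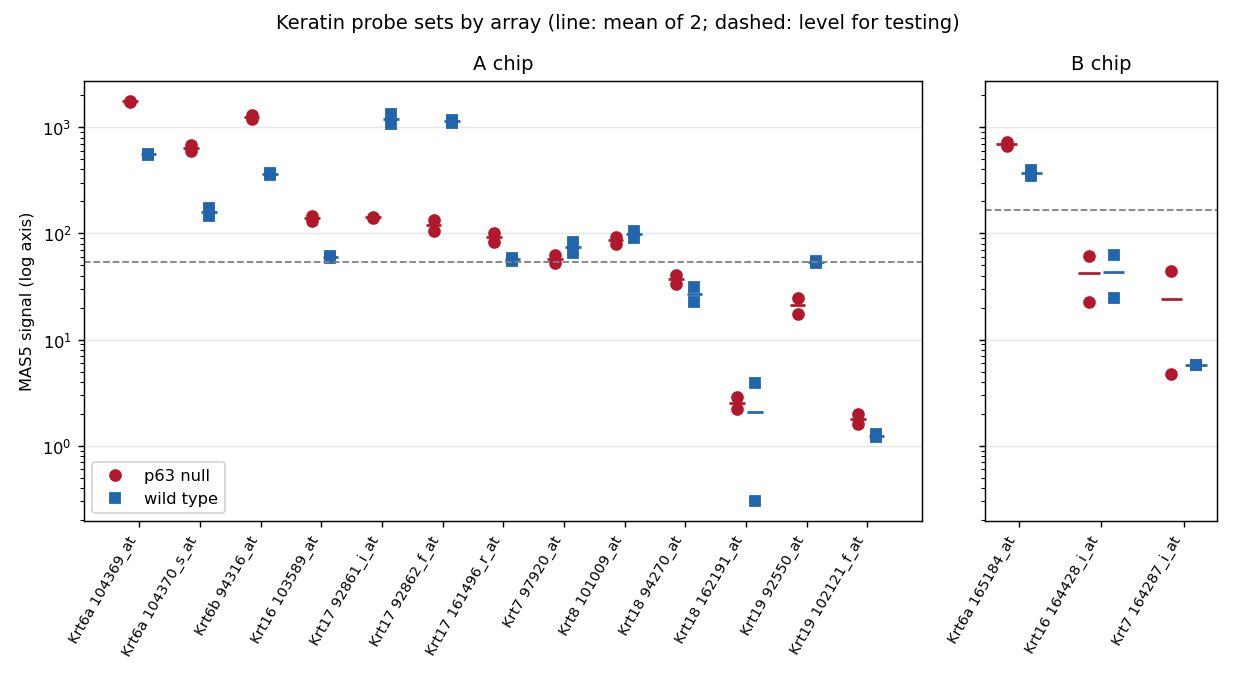
Deposited MAS5 signal on a log axis for each stress and simple keratin probe set, with 2 p63 null arrays (circles) left of 2 wild-type arrays (squares), lines at the means, and the level for testing dashed. Krt6a, Krt6b and Krt16 lie higher in null skin on the A chip, the Krt17 probe sets 92861_i_at and 92862_f_at lie lower, and Krt18 and Krt19 stay around or under the dashed level.

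Krt6a, a type II keratin of the hair follicle's companion layer and of wound edges, rose in null skin on all 3 of its probe sets. Its probe set 104369_at read 1732 and 1763.9 in null skin, against 559.4 and 551.2 in wild-type skin. Both null arrays were high, by an amount far above the gap between arrays of 1 genotype. The means were 1748 ± 22.6 in null and 555 ± 5.80 in wild type (SD, n = 2 each), and the log2 fold change was 1.63 (SE 0.11, 95% interval 1.38 to 1.88, limma adjusted p = 6.86e-06). Of the 6757 tested single-symbol probe sets of the A chip, 111 rose further.

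The second A-chip probe set of Krt6a, 104370_s_at, whose suffix marks probes shared between similar transcripts, read 683.3 and 598.9 in null skin, against 172.6 and 144.9 in wild type. The genotypes again did not overlap, and the log2 fold change was 1.93 (SE 0.15, limma adjusted p = 1.45e-05). The B chip gave a smaller change. There probe set 165184_at read 668.5 and 724.7 in null skin, against 393.5 and 344.9 in wild type, with a log2 fold change of 0.83 (95% interval 0.44 to 1.22, limma adjusted p = 0.0103). On the B chip 14.5% of 7446 tested probe sets were called higher and 14.9% lower, together 29.4%. Its 2 genotypes did not overlap there, as was the case for 67.7% of tested probe sets. The call on the B chip was lost without wild-type replicate 2 (log2 fold change 0.74, limma adjusted p = 0.0732). The ratio of mean deposited signals was 3.15 and 4.04 for the A-chip probe sets and 1.89 for that of the B chip, so the probe sets of this gene gave the same direction and different sizes.

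Krt6b, the neighbouring and closely similar type II gene, changed like Krt6a. Its probe set 94316_at read 1190.3 and 1313.3 in null skin, against 367.2 and 354.6 in wild type. Means were 1252 ± 87.0 in null and 361 ± 8.91 in wild type (SD, n = 2 each), a log2 fold change of 1.76 (SE 0.12, 95% interval 1.49 to 2.03, limma adjusted p = 7.00e-06). Within an array, log2 Krt6a minus log2 Krt6b moved by -0.13 between genotypes. By the RefSeq gene table, 0 protein-coding genes lie between Krt6a and Krt6b, and transcripts of this pair can bind each other's probes, so the share of each gene in these signals is uncertain.

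Krt16, a type I keratin that pairs with Krt6 proteins in wounded and thickened epidermis, rose less and from a dim signal. Probe set 103589_at read 131.7 and 144.8 in null skin, against 60.8 and 58.8 in wild type. The log2 fold change was 1.05 (SE 0.19, 95% interval 0.63 to 1.48, limma adjusted p = 0.00202). The wild-type signals were close to the level for testing, near 54.0 on this chip. On the B chip probe set 164428_i_at of Krt16 was below the level for testing, with 22.7 and 61.7 in null against 24.4 and 62.9 in wild type, so that arrays of 1 genotype differed more than the genotypes did.

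Krt17, a type I keratin of the hair follicle, of skin appendages, of periderm and of wounded epidermis, went the other way. Probe set 92861_i_at read 143.5 and 140.7 in null skin, against 1068.6 and 1325.2 in wild type. Probe set 92862_f_at, whose suffix marks probes shared within a gene family, read 133 and 105.1 in null, against 1092.6 and 1181.8 in wild type. Mean signals in wild type were 8.42 and 9.55 times those in null, and the genotypes lay far apart on both.

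The log2 fold changes of these Krt17 probe sets were -2.96 (SE 0.14, 95% interval -3.28 to -2.63, limma adjusted p = 7.21e-07) and -3.13 (SE 0.15, limma adjusted p = 6.08e-07). Of the 6757 single-symbol probe sets tested on the chip, 56 and 47 fell further. The third Krt17 probe set disagreed: 161496_r_at, whose suffix marks relaxed rules of probe choice, read 82.2 and 102 in null, against 59.2 and 55 in wild type. It missed the threshold in limma (log2 fold change 0.58, 95% interval 0.10 to 1.06, adjusted p = 0.0509). It passed with an offset of 16 (adjusted p = 0.0496), without the intensity trend (0.0235) and without null replicate 1 (0.0489) in limma. None of the 3 Krt17 probe sets has the plain suffix _at, with no letter before it, as that of Krt6b has. The probe sequences were not used here, so which transcripts each of the 3 probe sets binds was not tested.

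Krt16 and Krt17 are neighbours, with 0 protein-coding genes between them by the RefSeq annotation, and the fits gave them opposite changes. Within an array, log2 Krt16 minus log2 Krt17 (92861_i_at) was -0.11 and 0.04 in null skin, against -3.88 and -4.22 in wild type, a shift of 4.01. For log2 Krt6a (104369_at) minus log2 Krt17 it was 3.48 and 3.53 in null, against -0.92 and -1.25 in wild type, a shift of 4.59. The gap within one array has no meaning as a level, since probe sets differ in brightness. The shift between genotypes is the difference of the 2 fold changes.

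**Figure D2:**
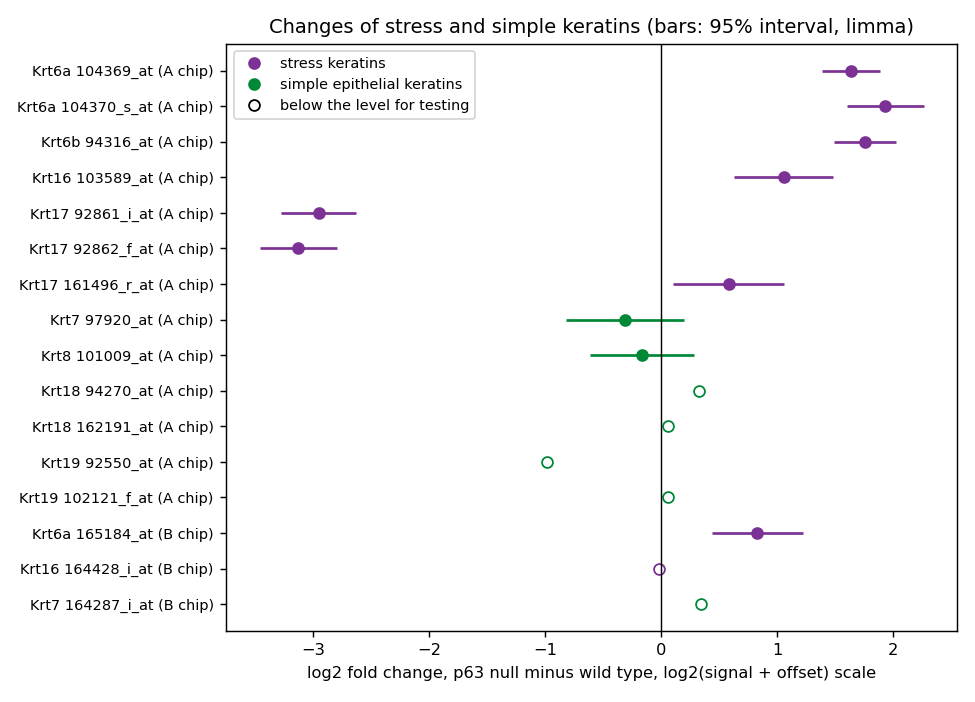
Log2 fold change, p63 null minus wild type, of each stress and simple keratin probe set on the log2(signal + offset) scale, with 95% limma intervals for the tested ones and open circles for those below the level for testing. Krt6a, Krt6b and Krt16 lie right of 0 on the A chip, Krt17 lies at -2.96 and -3.13 in 2 of its 3 probe sets, and the intervals of Krt7 and Krt8 span 0.

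The simple keratins gave low signals, and none of them was called. Krt8, the type II keratin of single-layered epithelia, read 80.3 and 91.7 in null skin, against 106.1 and 90.4 in wild type. The genotypes overlapped, and the log2 fold change was -0.17 (SE 0.20, limma adjusted p = 0.519). Its 95% interval was -0.61 to 0.28, on a scale that understates the change of dim probe sets.

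Krt7, a type II keratin of ducts and glands, read 62.2 and 52.2 in null, against 64.9 and 83.8 in wild type. Both null arrays were below both wild-type arrays by a small margin. The log2 fold change was -0.31 (SE 0.23, 95% interval -0.82 to 0.20, limma adjusted p = 0.290). The B-chip probe set of Krt7 was below the level for testing, with 4.7 and 44 in null against 5.8 and 5.8 in wild type, and its null arrays disagreed.

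Krt18, the type I partner of Krt8, stayed below the level for testing on both its probe sets. Probe set 94270_at read 33.3 and 40.6 in null, against 22.8 and 31.4 in wild type, a log2 difference of 0.32. With the filter on low signal taken away, its limma adjusted p was 0.411. Probe set 162191_at read between 0.3 and 3.9 in all 4 arrays. Krt8 and Krt18 lie next to each other too, with 0 protein-coding genes between them.

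Krt19, a type I keratin of glands, of embryonic skin and of hair follicle stem cells, was also below the level for testing, and its brighter probe set differed. Probe set 92550_at read 17.6 and 24.5 in null, against 53.1 and 54.6 in wild type, so the null arrays lay low and apart. The log2 difference was -0.98, and without the filter its limma adjusted p was 0.0330, which would place it among the falls. The other probe set, 102121_f_at, read between 1.2 and 2 in all arrays.

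A low signal need not mean a silent gene on this array type. The A-chip probe sets of Krt5 and Krt14, the main basal keratins of skin, read 10.8 and 10 in null against 6.4 and 11.8 in wild type, and 3.2 and 7.9 against 15.9 and 4.6. That of Vim, the intermediate filament of fibroblasts, read 20.2 and 17.4 in null, against 29.8 and 18 in wild type. Detection calls were not used here, so whether the dim Krt18 signals, and those of Krt19 in null skin, are above background was not tested.

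Promoter windows of the simple keratins are shown because they are the members that RefSeq's table for GRCm38.p6 covers here, and because Krt7 and Krt8 are the tested genes of which no probe set was called. It held 3 of the 8 members, Krt7, Krt8 and Krt18. Each window runs from 250 bases before the annotated start to 50 after it, 5′ to 3′ along the gene, at chr15:101412153-101412452 on the plus strand for Krt7 and at chr15:102004293-102004592 on the minus strand for Krt8. Capitals mark GC boxes (GGGCGG) and TATA boxes (TATAAA) on either strand.
Krt7: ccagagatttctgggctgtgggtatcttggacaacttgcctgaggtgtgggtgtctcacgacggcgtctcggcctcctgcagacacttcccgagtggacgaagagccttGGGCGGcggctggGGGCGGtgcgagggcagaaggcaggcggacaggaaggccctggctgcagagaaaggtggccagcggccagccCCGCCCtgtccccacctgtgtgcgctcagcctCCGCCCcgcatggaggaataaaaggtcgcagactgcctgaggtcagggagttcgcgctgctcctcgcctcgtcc
Krt8: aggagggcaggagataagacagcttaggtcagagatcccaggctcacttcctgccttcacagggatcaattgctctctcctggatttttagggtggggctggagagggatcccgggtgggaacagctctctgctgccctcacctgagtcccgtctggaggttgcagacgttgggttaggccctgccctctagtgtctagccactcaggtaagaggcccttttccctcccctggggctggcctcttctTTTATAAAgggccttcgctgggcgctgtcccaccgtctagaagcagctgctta
Krt7 held 4 GC boxes, on both strands, beginning 141, 128, 56 and 24 bases before the start. Krt8 held a TATA box on each strand, overlapping each other at the annotated start. Over 32851 windows in the table a GC box was found in 35.7% and a TATA box in 13.6%, while 37 keratin windows held them in 2 and 19 cases. The AP-1 motif (TGANTCA, in 7.81% of windows) and the core of the antioxidant response element (in 12.4%) were searched too, with 0 matches in Krt7, Krt8 and Krt18. A match of letters is a description and shows no binding.

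The classes are set side by side here as counts and medians, with no test of a difference between them. The 7 stress probe sets of the A chip were all tested, with 4 higher, 2 lower and 1 not called, and their log2 fold changes ran from -3.13 to 1.93 with a median of 1.05. Of the 6 simple probe sets 2 were tested, with 0 called by limma and 0 at an unadjusted p under 0.05. Over the 6 the values ran from -0.98 to 0.32, and the tested ones had a median of -0.24. The median over all tested probe sets of the chip was 0.02. Read by 1 probe set per gene, that of highest mean signal, the stress median was 1.34. These medians are descriptions of few probe sets, and since 4 of 6 simple probe sets were so dim that the offset draws their values towards 0, the contrast rests on Krt7 and Krt8 alone.

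Among the 22 keratin genes tested on the A chip, each read by its brightest tested probe set, 4 were called higher and 10 lower. Over all probe sets tested on that chip 22.1% were called higher and 22.2% lower, so the count of 4 higher is near that share. The 4 higher were Krt6a, Krt6b, Krt16 and Krt36, a hair keratin that read 132.8 and 101.9 in null against 56.3 and 45.1 in wild type (log2 fold change 1.03, limma adjusted p = 0.00503). Of the 7 keratin genes tested on the B chip 6 were lower, and Krt6a was the 1 that was higher. Over all probe sets tested on the B chip 14.5% were called higher and 14.9% lower. Apart from the stress and simple keratins, 9 of 16 were lower of the A chip and 6 of 6 of the B chip, and their median log2 fold changes were -0.64 and -2.68.

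Krt1 and Krt10, the keratin pair of the spinous layer, fell, at -3.14 and -1.71 on the log2 scale. Krt1 read 708.1 and 867.8 in null skin, against 7499.6 and 6597.3 in wild type. The basal keratin Krt15 fell by 3.71 on the B chip, with 842.1 and 784 in null against 10543.6 and 12121.1 in wild type. That probe set, 164618_f_at, carries the suffix of probes shared within a gene family, and the A-chip probe set of Krt15 read between 1.5 and 1.9 in all arrays. Krt17 thus lay between Krt10 and Krt1 in the order of changes, not beside Krt6a and Krt16. Krt25, Krt27 and Krt71, keratins of the inner root sheath of the hair follicle, fell (-4.14, -2.58 and -1.69), and so did Krt12 (-1.85), which is known from the cornea. On the B chip Krt23, Krt79, Krt80, Krt73 and Krt77 fell too, with log2 fold changes of -4.24, -3.10, -2.25, -2.23 and -1.96. Krt23, a type I keratin of epithelia, read 44.8 and 36.6 in null, against 1751 and 1725.6 in wild type.

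**Figure D3:**
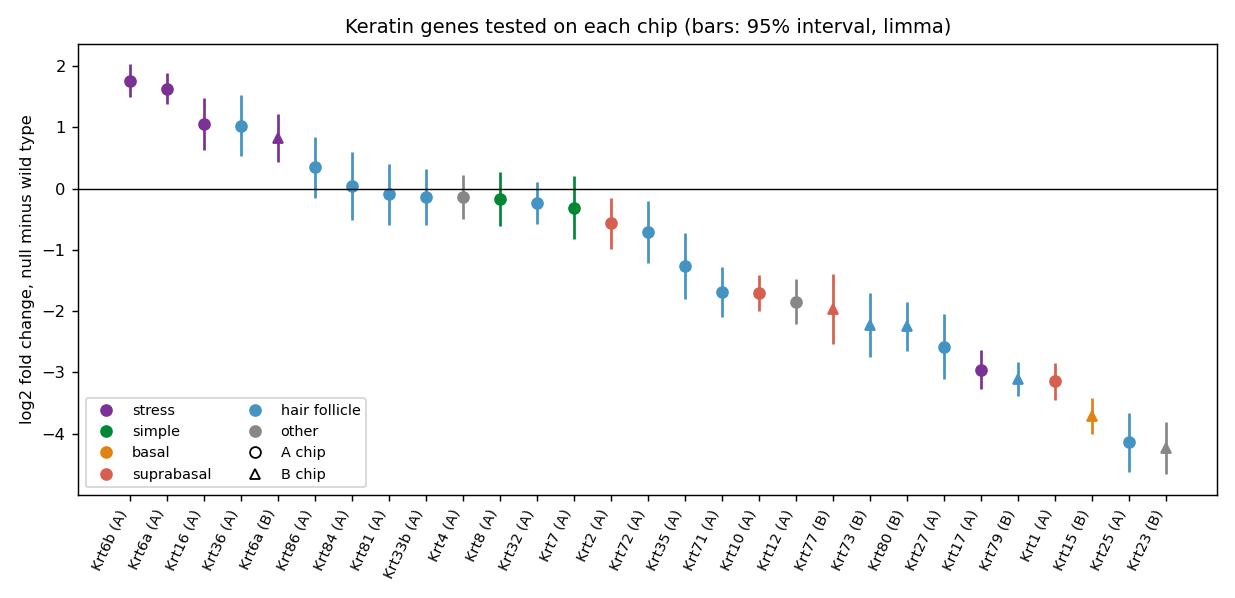
Log2 fold change, p63 null minus wild type, of every keratin gene tested on the A chip (circles) or the B chip (triangles), each read by its brightest tested probe set, in falling order with 95% limma intervals and coloured by class. Krt6b, Krt6a and Krt16 stand at the upper end, Krt8 and Krt7 near 0, and Krt17 among the suprabasal and hair follicle keratins at -2.96. Classes were assigned by symbol only, and the hair follicle class as coloured here takes in Krt80.

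Genes around the keratin network are given next, from lists written with earlier results of these data known. Of 15 tested genes that link keratins to junctions or regulate them, 11 were lower, 2 higher and 2 not called on the A chip, with a median of -2.30. Over all probe sets tested on that chip 22.2% were lower and 22.1% higher. The desmosomal plaque proteins Pkp3, Pkp1 and Dsp and the cytolinker Ppl, which anchor keratin filaments at cell junctions, fell, at -4.10, -3.04, -2.90 and -3.25. The transcription factor Tfap2c fell by 3.52, and Sfn, the 14-3-3 protein of stratified epithelia that binds Krt17 in keratinocytes, fell by 3.17. The 2 that rose were Plec, plectin, a linker of intermediate filaments in muscle as well as in epidermis (1.09, limma adjusted p = 0.00147), and Stat3, a mediator of cytokine signals (0.61, limma adjusted p = 0.00501). On the B chip all 4 tested were lower, with Dst, Evpl, Pkp3 and Nr3c1 at -3.01, -2.57, -1.75 and -0.47. There 14.9% of all tested probe sets were lower.

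Genes of activated epidermis held members called in each direction. Over all probe sets tested on the A chip 22.1% were called higher and 22.2% lower, together 44.3%. Of 15 tested on the A chip 6 were higher, 5 lower and 4 not called, with a median of 0.25. S100a8 and S100a9, calcium-binding proteins of stressed keratinocytes and of neutrophils, rose by 4.17 and 3.90. The wound matrix protein Tnc rose by 2.97, the chemokine Cxcl1 by 1.85, the urokinase receptor Plaur by 1.34 and the siderophore-binding Lcn2 by 0.78. Serpinb3a, the interleukin Il1a, its antagonist Il1rn and the small proline-rich genes Sprr2d and Sprr1a fell, at -3.70, -2.72, -1.81, -1.44 and -0.45 on the log2 scale.

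Simple epithelium genes other than the 4 keratins went down or were not called. Of 7 tested on the A chip 4 were lower and 3 not called, with a median of -0.63, where 22.2% of all tested probe sets were lower. The protease inhibitor Spint1, the splicing factor Esrp1, the claudin Cldn4 and the protease Prss8 fell (log2 fold changes -3.92, -3.65, -2.25 and -0.63). These genes are also expressed in stratified epithelia. On the B chip 2 were tested, of which Krt23 was lower. The other was a second Spint1 probe set, which pointed the other way from that of the A chip without being called: it read 266.3 and 225.8 in null against 71.1 and 162 in wild type (log2 fold change 0.86, 95% interval 0.11 to 1.62, limma adjusted p = 0.0822). Of 5 tested non-keratin intermediate filament genes on the A chip 2 rose, where 22.1% of all tested probe sets were higher. Nes rose by 0.94 and Des, desmin of muscle, by 0.94, while 3 were not called, and the median was 0.18.

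**Figure D4:**
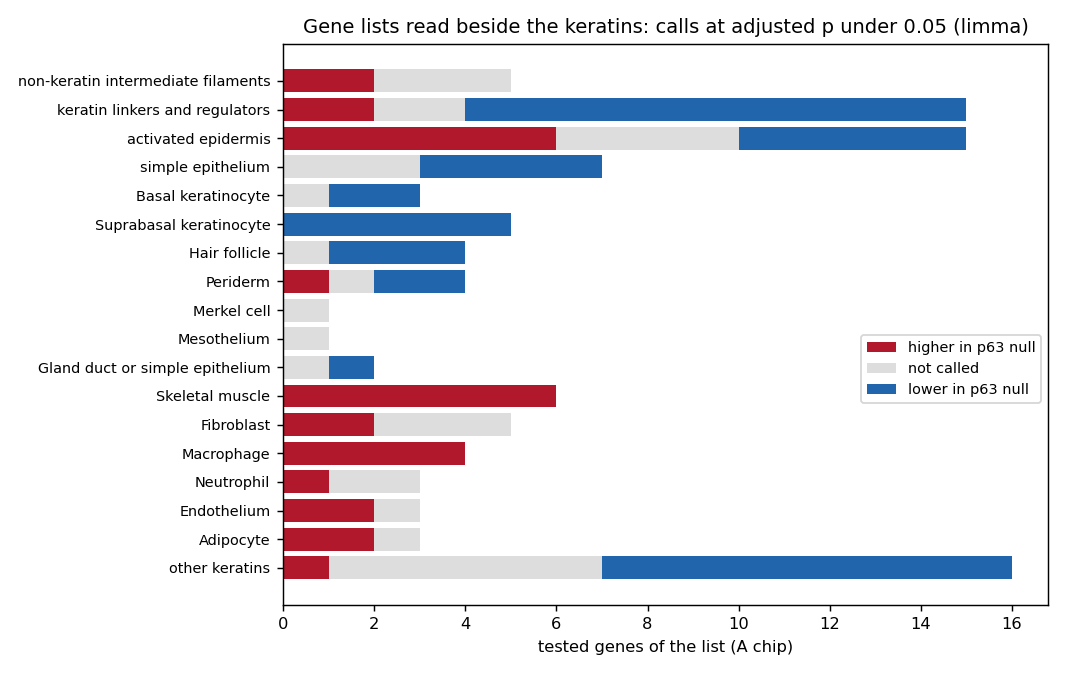
Number of tested A-chip genes in each list called higher (red), not called (grey) or lower (blue) in p63 null skin by limma at an adjusted p under 0.05. Skeletal muscle and macrophage markers are red throughout, suprabasal keratinocyte markers blue throughout, and activated epidermis holds 6 higher and 5 lower.

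Markers of the cell types that could carry these keratins moved with genotype too. In bulk skin, fewer cells of a type and less RNA per cell cannot be told apart. All 5 tested suprabasal keratinocyte markers were lower, with a summed signal of 3014 to 3678 in null against 26337 to 28063 in wild type. On the A chip 22.2% of all tested probe sets were called lower. Of 3 basal keratinocyte markers tested there 2 were lower. The basal list summed to 330 to 354 in null against 1093 to 1122 in wild type. Most of the wild-type sums was Col17a1 (667.5 and 709.2, against 86.2 and 68.7 in null). Of 4 hair follicle markers tested 3 were lower, with sums of 166 to 230 in null against 1088 to 1132 in wild type. The Krt17 fall went with the falls of these markers, and their part in it was not tested. The rise of Krt6a, Krt6b and Krt16 went against them.

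Of the 6 periderm markers listed, which include Krt6a and Krt17, 4 were tested on the A chip, with 1 higher and 2 lower and sums of 2388 to 2418 in null against 3944 to 4076 in wild type. On that chip 22.1% of all tested probe sets were called higher and 22.2% lower. The 1 marker that was higher is Krt6a itself and Krt17 is among the lower ones, so these counts in part restate the keratins. The sums do not, since Krt6a and Krt17 moved in opposite directions. Sfn read 202.3 and 187 in null against 1951.9 and 1757.3 in wild type. The other tested periderm markers were Sfn, which was lower, and Krt4, which was not called. Of the 6 Merkel cell markers 5 were on the A chip and 1 was tested and not called, with sums of 183 to 193 in null against 229 to 253 in wild type. Atoh1, which defines Merkel cells, read between 4.7 and 6.9 in all arrays. Mesothelial markers had 1 tested, which was not called, with sums of 87.1 to 93.8 in null against 80.7 to 100.2 in wild type, and Msln read between 3.5 and 6.8. Of gland duct markers 2 were tested and 1 was lower, where 22.2% of all tested probe sets were lower. The gland duct list summed to 207 to 211 in null against 525 to 587 in wild type.

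Several marker lists of cell types outside the epithelium held markers called higher in null skin. Over all probe sets tested on the A chip 22.1% were called higher. With so few genes in a list, the counts were not tested against that share. All 4 macrophage markers were higher, with sums of 2830 to 3169 in null against 1014 to 1133 in wild type, and all 6 skeletal muscle markers, with sums of 13301 to 14774 against 7541 to 7623. Of 3 neutrophil markers tested 1 was higher, S100a8, which keratinocytes also make, with sums of 2411 to 2509 in null against 555 to 565 in wild type. The neutrophil granule genes Ngp (101.9 and 91.3 in null against 13.8 and 11.7 in wild type) and Ltf (85.9 and 71 against 7.7 and 6.7) were also apart between genotypes, but their means were below the level for testing. Camp (327.7 and 303.1 in null against 326.5 and 372.2 in wild type) and Elane were tested and not called. Mpo was below that level, and its genotypes overlapped. Most of the null sums was S100a8 (1867.2 and 1836.2, against 92.9 and 88.1 in wild type). Higher too were 2 of 3 endothelial markers (sums of 1426 to 1494 against 733 to 798) and 2 of 3 adipocyte markers (7650 to 8396 against 3550 to 3953). Of 5 fibroblast markers 2 were higher (sums of 25755 to 31180 against 22256 to 24263). The fibroblast markers Col1a1, Col3a1 and Lum were not called (log2 fold changes 0.38, 0.19 and -0.10). In no list was a marker at 0 in all 4 arrays. The part of these cell types, and of beta-actin 3'/5' ratios, which were 1.27 in both null arrays against 1.63 and 1.69 in wild type, in the rise of Krt6a, Krt6b and Krt16 was not tested.

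The tested A-chip probe sets most like each keratin were found by the root mean square distance between log2 values centred on their mean over the 4 arrays. With 2 arrays a genotype, this ranks mainly the size of the genotype difference. Krt6a was nearest to Gbp7, Cox8b and Art3 (distances 0.029, 0.034 and 0.038), and Krt6b to Atp2a1, Ckmt2 and Ifi47 (0.032, 0.037 and 0.056). Krt16 was nearest to Ctsb, Glipr2 and Bin1 (0.017, 0.019 and 0.019). Krt17 was nearest to Cxcl14, Slc34a2 and Gjb6 (0.062, 0.081 and 0.115), which fell too (-2.86, -3.02 and -2.80). Krt7 was nearest to Nelfe, Arf4 and Tomm70a (0.024, 0.035 and 0.037) and Krt8 to Kmt5a, Prrg2 and Exosc4 (0.014, 0.016 and 0.019), and these 6 did not pass the threshold.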

How the data were processed

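RNA was extracted with TriZol and cleaned on RNeasy columns, per the labels' protocols, and hybridised to 2 chips. The deposited values are linear intensities; the submitters' processing notes name MAS5, without a version, and detection calls were not used. The authors' intensities were already scaled, with 2% trimmed means of 250.1 to 250.2 (A chip) and 500.1 (B chip).

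Each array was rescaled to the chip's mean 2% trimmed mean, and an offset, the chip's 20th percentile (12.9 and 54.3), was added before log2. The 66 control probe sets per chip were left out. Probe sets with a mean log2 value above the 40th percentile were tested (7453 and 7446) with limma 3.58.1 in R 4.3.3 (lmFit, eBayes with intensity trend, two-sided, no pairing, Benjamini-Hochberg over the chip, threshold 0.05). Probe sets were named by the platform annotation, which can be old. Genes named from the lists are at most 6 called per list and direction by size, plus Krt5, Krt14, Krt15, Krt1, Krt10, Vim and Trp63; a gene was read by its brightest tested probe set. Listed symbols that matched no probe set, such as Grhl3 and Krt75, were not analysed here. The fit was tested on simulated data. Members and lists were chosen with earlier results of these data known. P-values rest on the spread between the 2 arrays of a genotype on a chip, which limma draws towards that of probe sets of like signal. The number of arrays limits precision. Alternatives were another offset, a floor, other filters and scalings, no trend, a replicate block, 1 probe set per gene and leaving out each array, where the lone array of a genotype is assumed to vary like the other pair.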

Additional observations from a re-analysis of the deposited data

How the results depend on the processing

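The calls of Krt6a, Krt6b, Krt16 and Krt17 (92861_i_at and 92862_f_at) on the A chip kept their direction and their side of the threshold under every alternative in which they were tested; Krt16 was below the level for testing with the filter at the 60th percentile, as were Krt7, Krt8 and 161496_r_at of Krt17. Log2 fold changes ran from 1.62 to 1.65 for Krt6a (104369_at), 1.69 to 1.83 for Krt6b, 1.00 to 1.21 for Krt16 and -3.11 to -2.80 for Krt17 (92861_i_at). Krt7 and Krt8 were never called. The median of the stress probe sets, 1.05, was 1.02 with an offset of 16, 1.21 with signals under the 20th percentile set to it, 1.63 with the filter at the 60th percentile and 1.34 with 1 probe set per gene. That of the simple probe sets, -0.24, was -0.28 with signals set to that floor and -0.057 with no filter. Their difference, 1.29, was 1.49, 1.11 and 1.58 with the floor, no filter and 1 probe set per gene; at the 60th percentile no simple keratin was tested, and on the B chip none ever was except with no filter, so the contrast was not run there. Leaving out each array in turn, the stress median ran from 0.996 to 1.12 and the difference from 1.23 to 1.37. Probe sets called higher then ran from 1075 to 1579 (A chip) and 575 to 1244 (B chip), those called lower from 1052 to 1797 and 544 to 1354, and the keratin probe sets called higher on the B chip from 0 to 1. The lowest counts came without wild-type replicate 2; on the B chip those without wild-type replicate 1 were 603 and 572. Same-numbered arrays of the genotypes share only a number, with correlations of their deviations of 0.04 (A chip) and -0.05 (B chip); with the replicate block 1674 were higher and 1694 lower (A chip), and 1229 and 1182 (B chip), and no call of the 8 keratins changed. The causes of these shifts were not tested. Dim signals limit what can be said of Krt18 and Krt19.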
